A study of Homo sapiens with 3 samples.

Results

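The long noncoding RNAs (lncRNAs) described here are 10 genes that are widely studied for their work in the nucleus or for their links to cancer: MALAT1, NEAT1, NORAD, KCNQ1OT1, H19, MEG3, PVT1, HOTAIR, LINC-PINT and CYTOR. They were taken by name, with no threshold on their values but with earlier results of these data known, from the 62754 genes of the deposited table, of which 18866 are annotated as lncRNA genes, and all 10 were found. The RNA came from MCF10A, a human mammary epithelial line that grows without limit in culture but does not form tumours. By the labels, the cells had been transduced with the Retro-X Tet-One inducible vector without any insert (genotype "Empty vector") and selected with puromycin, and they received no doxycycline and no other treatment. By the study's methods, the RNA was sampled during exponential growth to build a metabolic model of the cells. There were 3 replicates, all of this 1 condition and of batch 1, so no group could be compared with another, and nothing in the labels says that they came from separate cultures.

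LncRNAs are transcripts that are not translated into a known protein. MALAT1 collects in nuclear speckles, bodies rich in splicing factors, and NEAT1 is the scaffold on which paraspeckles form. KCNQ1OT1, H19 and MEG3 are imprinted, transcribed from the copy inherited from a single parent, and KCNQ1OT1 silences genes around it on the same chromosome. NORAD is mainly cytoplasmic and binds Pumilio proteins, PVT1 lies next to the MYC oncogene, HOTAIR is transcribed from the HOXC cluster, LINC-PINT is a target of p53, and CYTOR is raised in several cancers. Libraries depleted of ribosomal RNA, as used here, also take in RNA without a poly(A) tail.

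Values were deposited as TPM, which sets read numbers relative to transcript length and brings each replicate to a sum of 1000000. With gene lengths from GENCODE release 44, all values of annotated genes were whole multiples of a smallest step within a tolerance of 0.001, and this step was taken as 1 read. Replicates 1, 2 and 3 then held 15273329, 15446347 and 11166546 reads on annotated genes, of which lncRNA genes took 1.14%, 1.49% and 1.21%. The labelled cell type was checked against marker genes. All 8 basal and epithelial markers reached 1 TPM, led by the keratin KRT5 at 6612 TPM. Of 6 luminal markers, 4 reached 1 TPM by the mean, led by the keratin KRT18 at 413 TPM. The others were KRT8 at 118, GATA3 at 12.8 and FOXA1 at 1.11 TPM. FOXA1 fell on both sides of 1 TPM between replicates, and the hormone receptor genes ESR1 and PGR had 3 reads and 1 read in all. Of 8 fibroblast, endothelial and immune markers, 3 reached 1 TPM, led by DCN at 9.05 TPM, and their summed level lay between 15.5 and 16.4 TPM in the 3 replicates. COL1A1 and PECAM1 also reached 1 TPM in every replicate, with means of 4.96 and 1.77 TPM. VWF, PTPRC and CD68 had 2, 8 and 2 reads in all, and COL1A2 and CD3E were at 0.

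Some sequence features bear on what can be counted for these genes, and the stretches that carry them are shown here from hg38, 5′ to 3′ on the gene's own strand. The end of mature MALAT1 is formed by cleavage in front of a small tRNA-like RNA, mascRNA, rather than by a poly(A) tail. The stretch shown runs over chr11:65506037-65506173 on the plus strand, and its capitals mark the 57 bases annotated as that small RNA (ENSG00000274072, chr11:65506117-65506173).
MALAT1 end: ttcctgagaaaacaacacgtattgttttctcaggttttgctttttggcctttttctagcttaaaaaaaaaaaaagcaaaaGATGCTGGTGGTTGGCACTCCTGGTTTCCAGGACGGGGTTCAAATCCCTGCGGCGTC
A run of 13 A bases encoded in the genome ends 6 bases before the small RNA, and the annotated gene goes on for 1900 bases after it. The small RNA had 0 reads in every replicate. All its 57 bases lie within the MALAT1 exon on the same strand. How reads in such an overlap were assigned is not given in the sources used here, so this 0 does not show its level.

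NORAD is known for its repeated Pumilio elements, and the window of 238 bases shown holds 3 of them in capitals (chr20:36049493-36049730, minus strand). The motif searched was TGTANATA, on the transcript strand only.
NORAD: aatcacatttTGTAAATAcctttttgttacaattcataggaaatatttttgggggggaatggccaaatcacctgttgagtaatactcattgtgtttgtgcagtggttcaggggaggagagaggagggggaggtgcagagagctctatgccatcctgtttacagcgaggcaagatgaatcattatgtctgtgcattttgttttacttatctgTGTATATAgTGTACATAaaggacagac
The whole transcript of 5401 bases held 15 matches, or 2.78 per kb. Of 281 other lncRNA genes with a canonical transcript of at least 5000 bases, 135 (48.0%) held the motif at least once, and 1 (0.356%) held it at NORAD's density or above. In the longest transcripts of the other members there were 9 matches in KCNQ1OT1, 6 in NEAT1, 3 in HOTAIR and 1 in MEG3. Per kb these were 0.0982, 0.264, 1.24 and 0.0769, so HOTAIR was the densest after NORAD. MALAT1, H19, PVT1, LINC-PINT and CYTOR held 0.

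CYTOR has a near-identical copy elsewhere on chromosome 2, MIR4435-2HG, and the 100 bases shown from both genes differ at 2 positions, set in capitals. The CYTOR stretch is chr2:87458312-87458411 on the plus strand, and that of MIR4435-2HG is chr2:111492105-111492204 on the minus strand.
CYTOR: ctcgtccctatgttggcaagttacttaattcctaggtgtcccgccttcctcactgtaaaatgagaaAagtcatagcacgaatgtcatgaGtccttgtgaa
MIR4435-2HG: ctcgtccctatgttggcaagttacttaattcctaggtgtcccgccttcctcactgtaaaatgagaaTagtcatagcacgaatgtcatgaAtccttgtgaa
Counted from 1 at the 5′ end of the stretch, and with the base of CYTOR first, the differences are A67T and G90A. Over all exons, 99.8% of the CYTOR bases aligned to the copy, at 99.2% identity.

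H19 and CYTOR also carry microRNA genes within their bounds, whose mature forms are shown because these RNAs are often discussed through them. The sequences are those of RefSeq on GRCh38.p14, with the seed (bases 2 to 8) in capitals. The miR-675 arms are cut from H19 (chr11:1996768-1996787 and chr11:1996800-1996822, minus strand), and miR-4435 lies in CYTOR (chr2:87629764-87629785, plus strand). A microRNA gene named MIR4435-2 also lies on the same strand within the copy MIR4435-2HG. Which of these genes would give rise to miR-4435 was not tested.
hsa-miR-675-3p: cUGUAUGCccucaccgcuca
hsa-miR-675-5p: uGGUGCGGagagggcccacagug
hsa-miR-4435: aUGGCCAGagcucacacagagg
No seed is shared among these microRNAs. Of 12 microRNA genes that lie within members on the same strand, 6 had a RefSeq sequence, and 2 had any read on their own short gene model.

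Of the 10 lncRNAs, 8 had reads and MEG3 and CYTOR had 0 in every replicate, where 0 was found for 64.3% of annotated lncRNA genes, 58.1% of all annotated genes and 26.2% of protein-coding genes. By the mean of the replicates, 7 reached 1 TPM, where the share at or above 1 TPM was 12.2% of annotated lncRNA genes and 24.9% of all annotated genes. In every replicate this held for 6, and KCNQ1OT1 and HOTAIR fell on both sides of 1 TPM. Together the 10 genes summed to 729.9, 1066 and 706 TPM, which was 5.71%, 6.58% and 6.16% of the TPM of all lncRNA genes. Of all lncRNA reads they took a larger share, 20.1%, 22.8% and 21.6%. MALAT1 alone made up 70.3%, 67.7% and 72.6% of their summed TPM.

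**Figure D1:**
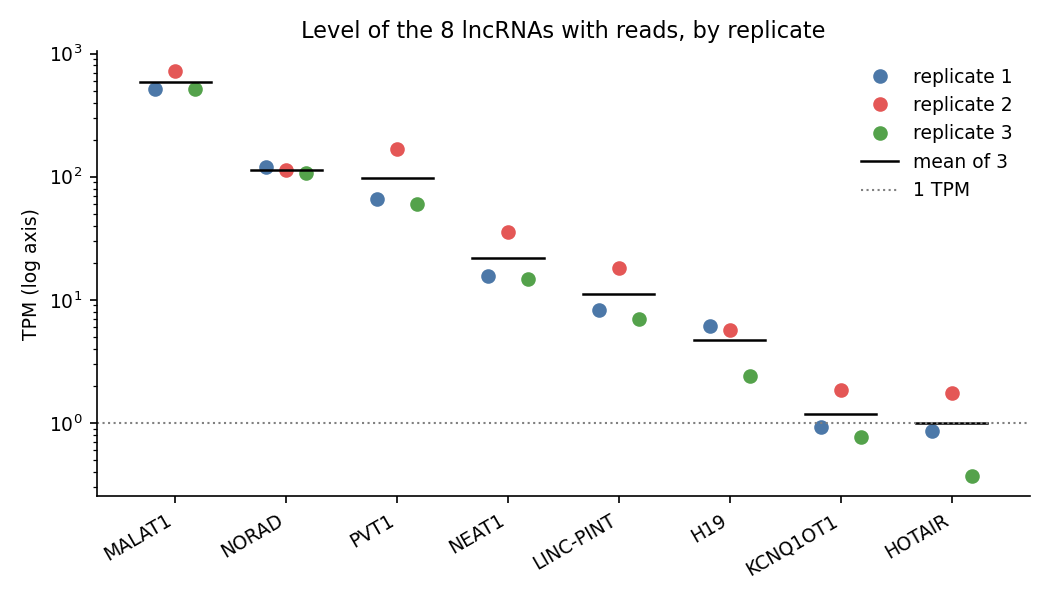
TPM (log axis) of the 8 lncRNAs with reads in each of the 3 replicates, shown as coloured points, with the mean as a bar and a dotted line at 1 TPM. MALAT1 lies at 513 to 722 TPM in every replicate, the points of KCNQ1OT1 and HOTAIR fall on both sides of 1 TPM, and replicate 2 is the highest point for 6 of the 8.

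By mean level the order was MALAT1, NORAD, PVT1, NEAT1, LINC-PINT, H19, KCNQ1OT1 and HOTAIR. Of the 7 pairs of neighbours in this order, 6 kept it in every replicate. NORAD exceeded PVT1 by 0.86 and 0.84 on the log2(TPM + 1) scale in replicates 1 and 3, and was lower by 0.55 in replicate 2 (mean difference 0.38 ± 0.81, SD, n = 3), so these neighbours did not differ beyond their spread. KCNQ1OT1 and HOTAIR differed by 0.15 ± 0.19 (SD, n = 3), also within the spread. NEAT1 lay above LINC-PINT by 0.92 ± 0.07 (SD, n = 3) although their TPM ranges overlapped, and both were highest in replicate 2 and lowest in replicate 3. For the other 4 pairs the ranges did not overlap, and the largest step, 2.33 ± 0.29 (SD, n = 3), lay between MALAT1 and NORAD.

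To see whether the replicates differed by more than counting error, the reads of each gene were compared with equal TPM in a chi-square test over 15802 genes with at least 15 reads in all, with Benjamini-Hochberg adjustment. All 8 members with reads were called, where the share called was 54.3% of all genes tested and 27.7% of the lncRNA genes tested. This test covers counting error only, and the share called rises with depth. Replicate 2 was the highest in 6 of the 8, as it was in 62.2% of the lncRNA genes, 49.5% of all genes and 46.5% of the protein-coding genes tested. It exceeded both others by more than 1.5 times in 5 of the 8, NEAT1, KCNQ1OT1, PVT1, HOTAIR and LINC-PINT. For this margin the share was 27.5% of the lncRNA genes tested, 8.77% of all genes tested and 3.33% of protein-coding genes. Replicates 1 and 3 exceeded both others by this margin in 0 of the 8, where the share of lncRNA genes was 5.43% and 4.34%. Replicate 3 was the lowest in TPM in 8 of 8, as it was in 70.6% of all genes and 52.8% of lncRNA genes tested. Its TPM were low in general: the median ratio to the mean was 1.06, 1.05 and 0.891 in replicates 1, 2 and 3. By share of reads, replicate 3 was not the lowest for MALAT1, NEAT1, NORAD and PVT1, but was for KCNQ1OT1, H19, HOTAIR and LINC-PINT. Without replicate 2, the test called 3 of the 8 (NORAD, KCNQ1OT1 and H19), where it called 46.7% of all genes tested. Without replicate 3 it called 5 and missed NORAD, H19 and HOTAIR, where the share of all genes was 21.3%. Without replicate 1 it called 7 and missed NORAD, where that share was 46.7%.

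As a further measure, replicate 2 was set against the mean of replicates 1 and 3. The median log2 ratio was 1.16 over the 8 members, 0.44 over the 2466 lncRNA genes tested (quartiles 0.03 and 0.90), and 0.12 over protein-coding genes. Among genes with at least 100 reads it was 0.36 for lncRNA genes and 0.11 for protein-coding genes. PVT1, at 1.42, lay above 89.5% of the lncRNA genes tested, and HOTAIR, at 1.51 but with few reads, above 91.7%. NORAD, at 0.00, lay above 23.9%. The share of reads on lncRNA genes was also highest in replicate 2, but the members themselves made up 20.1% to 22.8% of those reads. The part of this share in the values of the members was not tested.

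**Figure D2:**
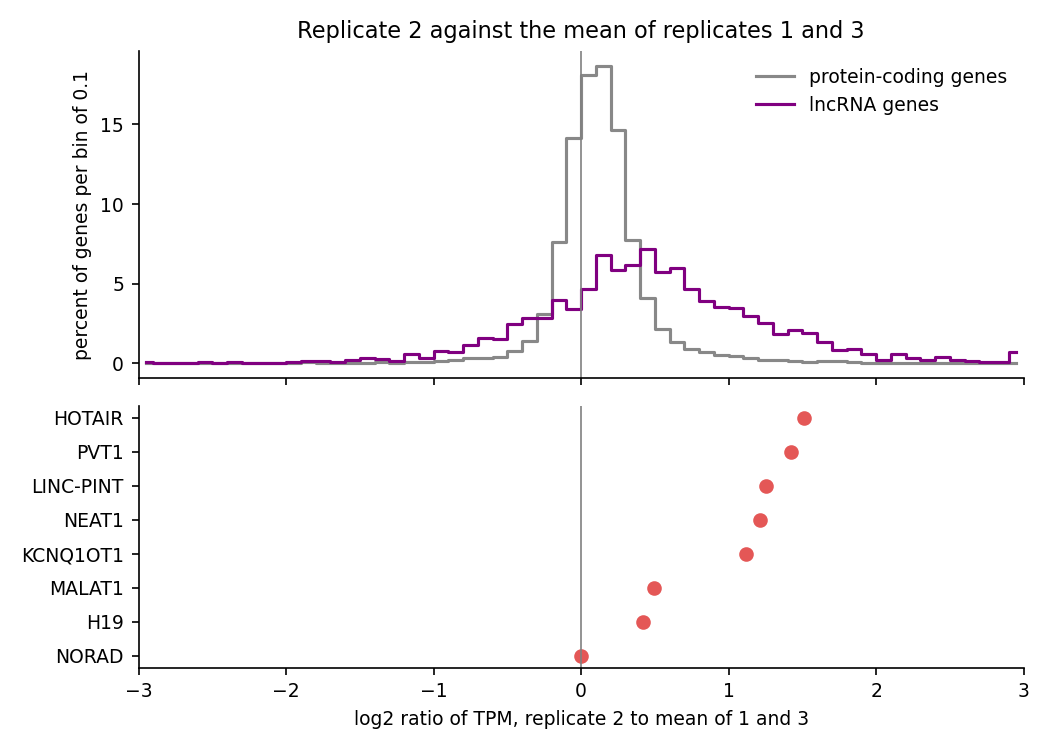
Log2 ratio of TPM in replicate 2 to the mean of replicates 1 and 3, as the percent of protein-coding and lncRNA genes per bin of 0.1 (top, with values past the axis limits put in the end bins) and for each of the 8 members (bottom). The lncRNA genes have a median of 0.44 and the protein-coding genes of 0.12, while 5 members lie between 1.12 and 1.51 and NORAD lies at 0.00.

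MALAT1 (ENSG00000251562, chr11:65497640-65508073, plus strand) had the highest level of all lncRNA genes and ranked 197 among all genes. Its level was 513, 722 and 513 TPM from 28214, 40782 and 23984 reads, a mean of 582 ± 120.5 TPM (SD, n = 3). Replicate 2 was 1.41-fold above the mean of the other replicates, which in TPM lay within counting error of each other (chi-square adjusted p 0.946 without replicate 2). MALAT1 reads made up 0.185% of the reads of replicate 1 (95% Wilson interval 0.183 to 0.187) and 0.264% of those of replicate 2 (0.261 to 0.267). In replicate 3 the share was 0.215% (0.212 to 0.218), so by share of reads replicate 3 lay above replicate 1. Such intervals cover counting error only. Of its exonic bases, 83.7% lie opposite exons of other genes, chiefly the antisense lncRNA TALAM1, which is known to aid MALAT1 maturation. TALAM1 was listed at 0.865, 1.16 and 0.439 TPM, with reads equal to 0.131%, 0.125% and 0.0667% of those of MALAT1. Whether the counting used strand is not given in the sources used here, so reads of the pair may not be fully separable.

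The proteins around MALAT1 were followed through nuclear speckle genes. Of 11 such genes, 10 reached 1 TPM in every replicate, led by the splicing factor gene SRSF2 at 395, 387 and 317 TPM, and replicate 2 exceeded both others by 1.5 times in 0 of the 10, where the share was 3.33% of protein-coding genes tested. The remaining gene, ACIN1, a widely used splicing gene named here after its values were seen, was listed at 0 in every replicate although 99.4% of its exonic windows of 50 bases occur once in the genome. An exact 0 in this table is therefore read only as a listed 0. Both factors of the MALAT1 end on the list were above 1 TPM, led at 125 TPM by ELAC2, the enzyme that trims tRNA 3′ ends. By the mean, 24.9% of all annotated genes reached 1 TPM, and the share of protein-coding genes was not determined. Counts at 1 TPM for these lists, and for the partner lists below, thus describe the listed genes only.

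NEAT1 (ENSG00000245532, chr11:65422774-65445540, plus strand), the neighbour of MALAT1 on chromosome 11, had 15.7, 35.3 and 14.8 TPM from 1877, 4345 and 1510 reads. Replicate 2 stood well above the others, 2.32-fold over their mean, and the mean of all was 21.9 ± 11.6 TPM (SD, n = 3). The adjusted p of the chi-square test was 5.03e-305, and without replicate 2 it was 0.177. MALAT1 exceeded NEAT1 32.8-fold, 20.5-fold and 34.6-fold in TPM in replicates 1, 2 and 3. NEAT1 has a short and a long form that share their start, and the long form is needed for paraspeckles. The deposited value divides all reads by the 22742 bases of the longest transcript, and with the 3439 bases of the short transcript NEAT1-201, a setting added after seeing the data, the same reads gave 104, 233 and 97.9 TPM. The table gives no split of reads between the forms.

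All 12 listed genes of paraspeckle proteins reached 1 TPM in every replicate. Replicate 2 exceeded both others by 1.5 times in 0 of 12, which is close to the 3.33% of protein-coding genes tested and is not particular to this list. HNRNPK, which steers NEAT1 processing towards the long form, had the highest level at 989, 879 and 843 TPM. The core proteins followed with 465, 467 and 361 TPM for SFPQ, 288, 281 and 229 TPM for NONO, and 75.3, 73.6 and 63.6 TPM for PSPC1. In each of these 4 genes replicate 3 was the lowest in TPM, as it was in 70.6% of all genes tested.

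NORAD (ENSG00000260032, chr20:36045618-36051018, minus strand) is a single-exon gene with 1 annotated transcript and was the steadiest member. It had 119.7, 114 and 108 TPM from 3406, 3331 and 2614 reads, a mean of 114 ± 5.86 TPM (SD, n = 3), which ranked sixth among lncRNA genes, and its highest value was 1.11-fold its lowest. The chi-square test gave an adjusted p of 0.00111, which rested on replicates 1 and 3: it was 0.0808 without replicate 1 and 0.135 without replicate 3. By share of reads NORAD took 0.0223%, 0.0216% and 0.0234%. Replicate 3 was thus lowest in TPM but highest by share of reads, so the direction of this difference depended on the scaling. Of its exonic windows of 50 bases, 58.6% occur once in the genome, and whether reads were shared with copies was not tested. All 8 genes of NORAD-binding proteins reached 1 TPM in every replicate. PUM2 had 84.8, 75.3 and 69.7 TPM, below NORAD in every replicate, and the RNA export gene ALYREF was the highest of the list at a mean of 314 TPM.

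Among the imprinted RNAs, KCNQ1OT1 (ENSG00000269821, chr11:2597308-2700003, minus strand) was low but well counted because of its length. It had 0.923, 1.84 and 0.774 TPM from 446, 913 and 318 reads, a mean of 1.18 ± 0.577 TPM (SD, n = 3). Replicate 2 was 2.17-fold above the mean of the others (chi-square adjusted p 2.88e-55) and was the only replicate above 1 TPM. It is transcribed antisense from within KCNQ1, a potassium channel gene, which had 2, 0 and 0 reads. CDKN1C, a growth inhibitor that KCNQ1OT1 is known to silence in cis, had 4.61, 4.01 and 3.46 TPM, without the rise in replicate 2. The ratio of KCNQ1OT1 to CDKN1C was 0.200, 0.458 and 0.224.

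H19 (ENSG00000130600, chr11:1995166-2004552, minus strand) had 6.11, 5.71 and 2.42 TPM from 77, 74 and 26 reads, a mean of 4.75 ± 2.02 TPM (SD, n = 3). Here replicate 3 stood apart on the low side and replicates 1 and 2 lay together. The chi-square adjusted p was 0.000256, and without replicate 3 it was 0.819. In hg38 a second copy of H19 lies on an unplaced chromosome 11 scaffold, which holds 98.5% of its exonic windows of 50 bases. Thus 1.53% of the windows were unique with scaffolds included and 100% on the main chromosomes alone. Whether the mapping used the scaffold, and so whether H19 reads were lost or split, was not tested. IGF2, the growth factor gene imprinted in the opposite direction beside H19, had 0, 1 and 0 reads. Of the 10 neighbours listed in this imprinted region of chromosome 11, 7 reached 1 TPM, led by NAP1L4 at 231 TPM.

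MEG3 (ENSG00000214548, chr14:100779410-100861031, plus strand) had 0 reads in each replicate, where 3 reads would have been 0.0438, 0.0426 and 0.0515 TPM. Its exonic windows of 50 bases are 99.1% unique. The other genes of this imprinted domain were also near 0. None of the 5 listed reached 1 TPM, with the lncRNA MEG8 the highest at 0.0829 TPM, and DLK1, a paternally expressed gene of the domain, was at 0.

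PVT1 (ENSG00000249859, chr8:127794526-128187101, plus strand) had 65.3, 168 and 59.9 TPM from 839, 2212 and 655 reads, a mean of 97.6 ± 60.6 TPM (SD, n = 3). Replicate 2 was 2.68-fold above the mean of the others (chi-square adjusted p 6.54e-200), and without replicate 2 the adjusted p was 0.168. MYC, its neighbour and a driver of growth, did not share this pattern, with 451, 445 and 323 TPM. The ratio of PVT1 to MYC was 0.145, 0.376 and 0.186. Among the microRNA genes hosted by PVT1, MIR1205, named after its values were seen, had 1, 26 and 4 reads. It was again highest in replicate 2, on a gene model so short that its TPM of 3.06, 77.4 and 14.4 rests on few reads.

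HOTAIR (ENSG00000228630, chr12:53962308-53974956, minus strand), a lncRNA known for its reported link to the Polycomb complex PRC2 and to LSD1, was the lowest of the members with reads. It had 0.865, 1.76 and 0.370 TPM from 11, 23 and 4 reads, a mean of 0.998 ± 0.704 TPM (SD, n = 3). The exact 95% Poisson intervals were 0.432 to 1.55, 1.11 to 2.64 and 0.101 to 0.946 TPM, so replicates 2 and 3 were apart and replicate 1 overlapped both. The chi-square adjusted p of 0.00732 was lost without replicate 2 (0.216) and without replicate 3 (0.150). Its neighbours on chromosome 12 were HOXC11 at 4.13, 4.42 and 2.60 TPM and HOXC12 at 0. Of the 9 HOXC genes listed, 5 reached 1 TPM, led by HOXC8 at 17.2 TPM. HOXC5 and HOXC4 fell on both sides of 1 TPM like HOTAIR, with 0.590, 1.15 and 0.693 TPM and 1.11, 0.866 and 0.392 TPM. All 16 listed subunits of PRC2 and of the LSD1-CoREST complex reached 1 TPM in every replicate, and KDM1A, which encodes LSD1, was the highest at 129.8 TPM.

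LINC-PINT (ENSG00000231721, chr7:130791264-131110176, minus strand) had 8.26, 18.1 and 6.93 TPM from 279, 628 and 199 reads, a mean of 11.1 ± 6.10 TPM (SD, n = 3). Replicate 2 was 2.38-fold above the mean of the others (chi-square adjusted p 8.87e-46), and without replicate 2 the adjusted p was 0.107. MKLN1, the coding gene beside it, was nearly level at 26.4, 25.1 and 23.1 TPM. Their ratio was 0.313, 0.721 and 0.300. CDKN1A, the classic p53 target, was the highest of this list at 152 TPM. The microRNA gene MIR29A within LINC-PINT, named after its values were seen, had 0, 3 and 0 reads.

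**Figure D3:**
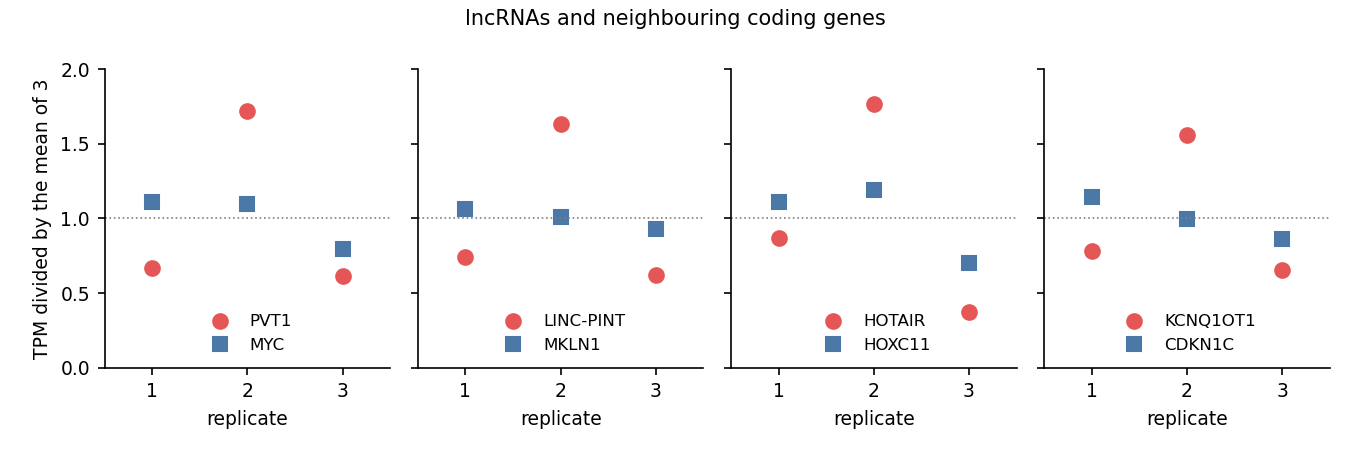
TPM of 4 lncRNAs (circles) and of a coding gene near each (squares) in replicates 1, 2 and 3, each divided by that gene's mean of the 3 replicates. PVT1, LINC-PINT, HOTAIR and KCNQ1OT1 are all highest in replicate 2, while MYC, MKLN1 and CDKN1C are highest in replicate 1 and HOXC11 in replicate 2 by a small margin.

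CYTOR (ENSG00000222041, chr2:87454781-87636740, plus strand) had 0 reads in each replicate, where 3 reads would have been 0.0758, 0.0737 and 0.0891 TPM. Only 29.9% of its exonic windows of 50 bases occur once in the genome, the lowest share of the members on the main chromosomes. Its copy MIR4435-2HG (chr2:111006015-111523376, minus strand), with 52.0% unique windows, had 7.42, 10.5 and 5.70 TPM from 260, 380 and 170 reads. Which of the genes gave rise to the reads counted for MIR4435-2HG was not tested, and the listed 0 of CYTOR is not taken as a lack of the RNA.

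**Figure D4:**
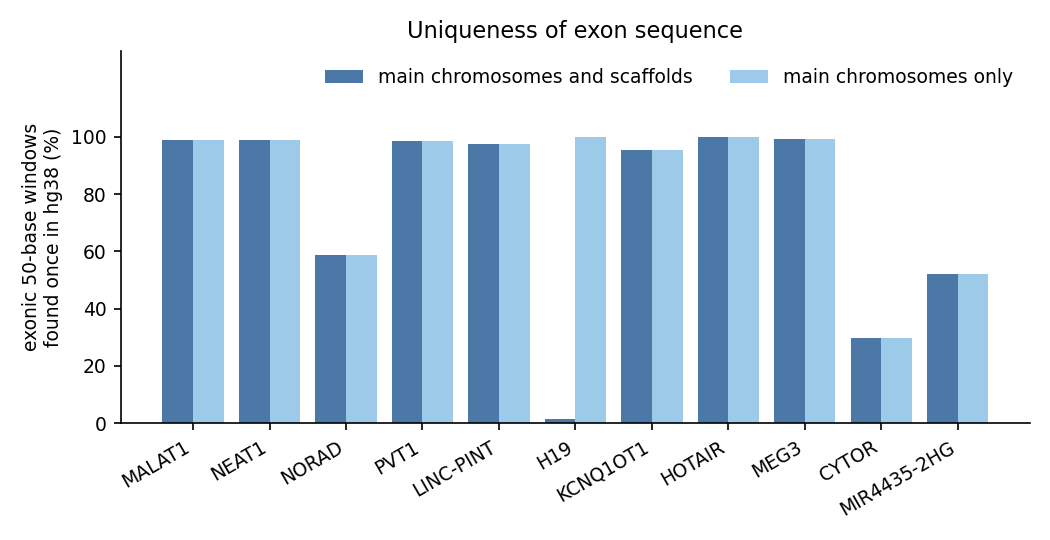
Percent of exonic windows of 50 bases that occur once in hg38, for the 10 members and the CYTOR copy MIR4435-2HG, with unplaced scaffolds included (dark bars) or on the main chromosomes only (light bars). H19 goes from 1.53% to 100% with this choice, and CYTOR stays at 29.9%.

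Since TPM divides by length, the level of a lncRNA with many transcripts depends on the length used. The deposited values follow the longest transcript. With the Ensembl canonical transcript, KCNQ1OT1 went from 1.18 to 129.8 TPM, since its canonical transcript has 679 bases against 91666 for the longest, and moved from the seventh place to the second among the members. LINC-PINT went from 11.1 to 37.7 TPM. With the union of all exons PVT1, which has 190 annotated transcripts, went from 97.6 to 12.5 TPM and LINC-PINT to 3.49 TPM. MALAT1 stayed first with 476 and 778 TPM, and HOTAIR stayed last of the 8 with 0.810 and 1.04 TPM. H19 went from 4.75 TPM to 8.37 and 4.41 TPM with the canonical transcript and the union, and NEAT1 from place 4 to places 6 and 3. A level relative to another gene, above all that of KCNQ1OT1, PVT1 or LINC-PINT, thus holds for 1 length choice. The ratios between replicates do not depend on the length beyond the rescaling of each replicate.

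**Figure D5:**
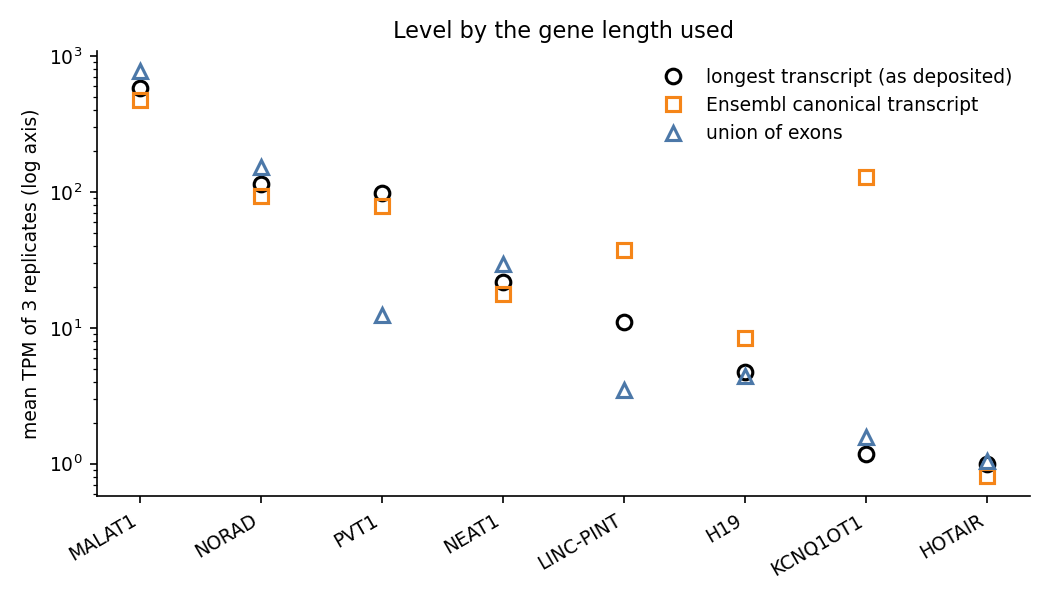
Mean TPM of the 3 replicates (log axis) for the 8 lncRNAs with reads, from the same reads divided by the longest transcript as deposited (circles), the Ensembl canonical transcript (squares) or the union of exons (triangles). The choices differ most for KCNQ1OT1, at 1.18, 129.8 and 1.56 TPM, and MALAT1 is the highest under each.

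For each member whose mean reached 1 TPM, the most similar of 18855 other lncRNA genes was taken as the one whose largest difference in log2(TPM + 1) over the 3 replicates was smallest. NORAD was closest to the snoRNA host gene SNHG1, with 105, 99.2 and 101 TPM and a largest difference of 0.20. The nearest gene to PVT1 was another snoRNA host, SNHG3, with 99.9, 139 and 90.6 TPM and a largest difference of 0.61. MALAT1 had no close match, since the nearest, SNHG29, was 0.71 away at 432, 440 and 372 TPM. The nearest to NEAT1, KCNQ1OT1, H19 and LINC-PINT were genes without a symbol (ENSG00000276603, ENSG00000289175, ENSG00000290041 and ENSG00000272764), at 0.28, 0.04, 0.12 and 0.10. With 3 replicates and so many genes a close match is a description of level only, and that of KCNQ1OT1 rests on 3, 6 and 2 reads.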

How the data were processed

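RNA-seq was measured in 3 replicates of MCF10A cells with an empty vector. The authors depleted ribosomal RNA, mapped reads to hg38 and deposited TPM values per gene from Seq2science, with replicates not pooled. The submitters' processing notes name fastp, STAR and MultiQC and the build GRCh38.p14. The annotation release and strand setting are not given in the sources used here. The deposited TPM were not rescaled for the main values.

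GENCODE release 44 on hg38 gave the type, position and length of 62700 of the 62754 genes, matched by identifier, and 54 had no match. Read numbers were recovered as TPM times the longest transcript length, less 1 base per exon, divided by the smallest step. A chi-square test set the reads of the replicates against equal TPM, over genes with at least 15 reads, with Benjamini-Hochberg adjustment and a threshold of 0.05. No group was compared with another. The order of members used log2(TPM + 1). A gene at 0 was given the level of 3 reads as its limit. Uniqueness was the share of exonic windows of 50 bases found once on either strand of 194 hg38 sequences, or of 25 main chromosomes.

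The members and all gene lists were chosen with earlier results of these data known. Named genes are every member, the highest gene of each other list, every listed gene called differently between replicates at 1 TPM, fixed partner genes, and the nearest lncRNA of each member, of which 1 gene is not reported here. The luminal, fibroblast, endothelial and immune markers are all named, and MIR4435-2 is named for its position. Any further gene is marked in the text as picked with its values in view. Alternatives covered the cutoff, the pseudocount, the length, rescaling, the read filter and leaving out each replicate. Scripts were tested on simulated data. Python 3.11.15, numpy 2.4.6, pandas 2.3.3, scipy 1.17.1, statsmodels 0.14.6, pysam 0.24.0 and matplotlib 3.10.9 were used.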

Additional observations from a re-analysis of the deposited data

How the results depend on the processing

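The median over the 10 members of their mean TPM was 7.92 and depended on the length used: it was 27.8 with the canonical transcript and 3.95 with the union of exons. The summed level of 834 TPM fell to 251 TPM without MALAT1. With the length of the short transcript, chosen after seeing the data, NEAT1 was 145 TPM. The number of members called different between replicates, 8 of 8, lay between 3 and 7 when 1 replicate was left out, lowest without replicate 2, while the share of all genes called went from 54.3% to between 21.3% and 46.7%. It was 8 after median scaling, where 31.2% of all genes were called, and 8 with no read filter, where 31.7% were. These numbers count calls whatever their direction. Between 6 and 8 members reached 1 TPM under the other cutoffs, summaries, rescalings and lengths, and between 5 and 7 neighbour pairs kept their order in every replicate, with 7 of 7 without replicate 2. Of single members' mean TPM, 2 of 10 moved by more than 1 SD when short structural and mitochondrial RNAs were left out and 1 when scaled to protein-coding genes. With the canonical transcript 4 of 10 moved, and with the union of exons also 4. The number of listed partner and neighbour genes at or above 1 TPM was 89 and stayed at 89 or 90. No paired analysis was possible because there is only 1 condition, with no group to pair its 3 replicates with. With 1 condition and counting error as the only error of the test, the spread between cultures was not measured apart from that between libraries, and depth limits HOTAIR, H19 and the genes at 0.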

Other observations

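Other lncRNAs often named beside these were listed as well. Of 18 symbols, 17 were found and 8 reached 1 TPM by the mean. TUG1, which the annotation classes as protein-coding, was the highest and among the steadiest, with 53.7, 55.7 and 47.2 TPM. LUCAT1 and CASC15 fell on both sides of 1 TPM, the former with 1.36 TPM in replicate 1 and 0.945 TPM in replicate 3, the latter with 1.19, 1.23 and 0.496 TPM. CDKN2B-AS1, the antisense RNA of the CDKN2B locus, had 0, 0 and 1 reads. Replicate 2 exceeded both others by 1.5 times in 3 of the 10 with at least 15 reads, among them LINC00511 (20.4, 38.9 and 22.0 TPM) and DLEU2 (9.41, 15.2 and 7.96 TPM), both named after their values were seen, where this held for 27.5% of the lncRNA genes tested. CRNDE and MIR31HG, also named after their values were seen, lacked that rise, with 13.4, 11.6 and 11.5 TPM and with 2.85, 3.03 and 3.38 TPM.

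Among the luminal markers, FOXA1 had 1.19, 0.790 and 1.34 TPM, lowest in replicate 2.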
